A study of Mus musculus with 13 samples.

Results

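The genes described are 10 genes of bone and connective tissue, Col1a1, Col1a2, Col3a1, Dcn, Sparc, Bglap, Ibsp, Alpl, Sp7 and Runx2. They were taken by symbol as a measure of vertebral RNA, and each matched 1 of the 48709 gene rows of the deposited count tables. RNA was sequenced from lumbar spinal motoneurons of SOD1-G93A mice, which carry a mutant human SOD1 transgene and are a model of amyotrophic lateral sclerosis, all killed at 65 days of age. The AAV-miR SOD1 group (n = 4) had received, into the cerebral ventricles at postnatal day 2, an adeno-associated virus (AAV) that expresses an artificial microRNA against human SOD1 in astrocytes. The AAV-miR ctrl group (n = 5) had received the control virus, and littermates that received no virus formed the non-injected group (n = 4). All 13 mice carried the transgene, so none of the comparisons involves a healthy mouse. The lumbar cord was frozen together with its vertebrae and cut into 14 µm sections, and 500 motoneurons per mouse were cut out by laser from the cresyl violet-stained tissue and pooled into 1 library. The labels give each mouse its own pool, and p-values measure the spread between these pools.

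Type I collagen, a triple helix of Col1a1 and Col1a2 chains, is the main protein of bone matrix and is also made by fibroblasts. Osteoblasts, the cells that build bone, add non-collagen proteins such as osteocalcin (Bglap) and bone sialoprotein (Ibsp) and carry the alkaline phosphatase Alpl, which frees phosphate for mineral. Their identity depends on the transcription factors Runx2 and Sp7 (osterix). Col3a1 and Dcn (decorin) are typical of soft connective tissue such as the meninges, tendon and vessel walls, while Sparc is made in bone and also by glial and endothelial cells. Osteocalcin and bone sialoprotein are not typical products of neurons.

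On GRCm38, Col1a1 (ENSMUSG00000001506) lies at chr11:94936224-94953042 on the plus strand, Col1a2 (ENSMUSG00000029661) at chr6:4504814-4541544 on the plus strand and Col3a1 (ENSMUSG00000026043) at chr1:45311538-45349706 on the plus strand. Dcn (ENSMUSG00000019929) lies at chr10:97479609-97518143 on the plus strand and Sparc (ENSMUSG00000018593) at chr11:55394500-55423183 on the minus strand. Bglap (ENSMUSG00000074483) lies at chr3:88383501-88384464 on the minus strand, Ibsp (ENSMUSG00000029306) at chr5:104299171-104311469 on the plus strand and Alpl (ENSMUSG00000028766) at chr4:137741733-137796384 on the minus strand. Sp7 (ENSMUSG00000060284) lies at chr15:102356606-102367182 and Runx2 (ENSMUSG00000039153) at chr17:44495987-44814797, both on the minus strand. All 10 are annotated as protein-coding, and counts cover their exons.

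The count of Bglap is the least certain of the 10, because mouse osteocalcin has near-identical copies, Bglap2 and Bglap3. The coding sequences of Bglap and Bglap2 are shown to let the likeness be seen, 5′ to 3′ from the GENCODE M21 transcripts, with the 4 differing bases in capitals.
Bglap: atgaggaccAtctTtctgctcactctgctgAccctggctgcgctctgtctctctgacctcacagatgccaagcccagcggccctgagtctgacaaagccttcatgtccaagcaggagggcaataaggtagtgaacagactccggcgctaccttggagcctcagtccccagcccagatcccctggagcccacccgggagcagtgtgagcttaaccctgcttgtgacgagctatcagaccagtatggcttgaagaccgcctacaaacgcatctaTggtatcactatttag
Bglap2: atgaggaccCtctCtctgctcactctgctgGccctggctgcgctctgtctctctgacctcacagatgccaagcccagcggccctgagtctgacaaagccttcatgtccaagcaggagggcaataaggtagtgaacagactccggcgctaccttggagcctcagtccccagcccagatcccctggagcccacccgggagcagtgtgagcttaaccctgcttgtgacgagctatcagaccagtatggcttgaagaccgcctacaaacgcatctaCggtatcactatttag
Of 288 coding bases, 284 (98.6%) were the same in both. Of the 391 windows of 50 bases in the Bglap transcript, 292 (74.7%) occur exactly in Bglap2 and 80 (20.5%) in Bglap3. Reads that aligned to several places were not assigned to a gene, so Bglap counts rest on the remaining stretches. The ratio of Bglap to Bglap2 counts ran from 4.29 to 5.85 over the 13 libraries, with a median of 5.06. A steady ratio does not show that reads were assigned to the right copy.

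RefSeq promoter sequences (GRCm38.p6) were matched for 7 of the 10 genes, with 8 promoters in all. The promoter of Bglap, the gene with the widest range among libraries, is shown beside that of Col3a1, one of the genes that varied less in step with the others. Each is the 250 bases before the annotated start, in the direction of transcription, with TATAAA and the core motif of Runx factors, ACCACA, in capitals where found on either strand. The Bglap window is chr3:88384467-88384716 on the minus strand, and the Col3a1 window is chr1:45311288-45311537 on the plus strand.
Bglap: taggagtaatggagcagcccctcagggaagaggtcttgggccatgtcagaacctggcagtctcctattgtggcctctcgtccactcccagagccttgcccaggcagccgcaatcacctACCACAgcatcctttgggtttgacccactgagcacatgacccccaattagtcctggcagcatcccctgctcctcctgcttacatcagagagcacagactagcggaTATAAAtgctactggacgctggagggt
Col3a1: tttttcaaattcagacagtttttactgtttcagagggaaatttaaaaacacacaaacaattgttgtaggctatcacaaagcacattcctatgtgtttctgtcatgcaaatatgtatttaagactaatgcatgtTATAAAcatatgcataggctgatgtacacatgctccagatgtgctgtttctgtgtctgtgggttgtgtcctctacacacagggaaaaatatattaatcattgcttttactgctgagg
ACCACA was present in 4614 of 32851 mouse promoters of this length and in 2 of the 8 promoters here, those of Bglap and Runx2. TATAAA was present in 4063 (12.4%) of all promoters and in 4 of the 8, those of Col3a1, Bglap, Ibsp and the second promoter of Alpl. The 2 motifs do not overlap in these windows. A match is a description of the letters and not evidence of binding.

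Counts assigned to genes ranged from 13.9 to 37.4 megacounts per library, and the 4 libraries numbered 5 or 6, none of them AAV-miR SOD1, were the deepest. Column headers contradicted the labels in 2 tables, those of the third non-injected replicate and the third of AAV-miR ctrl. The labels were followed. The labelled cell type was checked with 7 motoneuron genes, which held 0.128% to 0.528% of counts and were detected in every library. Genes of other tissues were also high: 7 skeletal muscle genes held 0.873% to 10.2%, 10 neutrophil granule genes 1.09% to 8.51% and 11 erythroid genes 0.370% to 5.25%.

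Bone and connective tissue RNA was abundant in every library. Summed over the 10 genes it held 1.09%, 2.09%, 1.69% and 2.41% of counts in AAV-miR SOD1 replicates 1 to 4. It held 3.83%, 1.26%, 1.23%, 3.59% and 0.732% in AAV-miR ctrl replicates 1, 3, 4, 5 and 6. In non-injected replicates 2, 3, 5 and 6 the shares were 0.904%, 0.606%, 2.93% and 0.671%. The highest shares belonged to AAV-miR ctrl replicates 1 and 5 and to non-injected replicate 5, and all groups overlapped. Counting error was small at this depth, with the widest 95% Wilson interval spanning 0.0164 percentage points, but amplified reads are not independent molecules and such intervals cover counting error only. In all 13 libraries the 10 genes took a larger share than the 7 motoneuron genes, from 1.15 times in non-injected replicate 3 to 17.9 times in AAV-miR ctrl replicate 1. In non-injected replicate 3, 31413 of the 106315 counts of the 10 genes belonged to Sparc, which glial and endothelial cells also make. The order of the 2 lists in that library rests on Sparc. These shares are not scaled for gene length or for the size of a list.

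**Figure D1:**
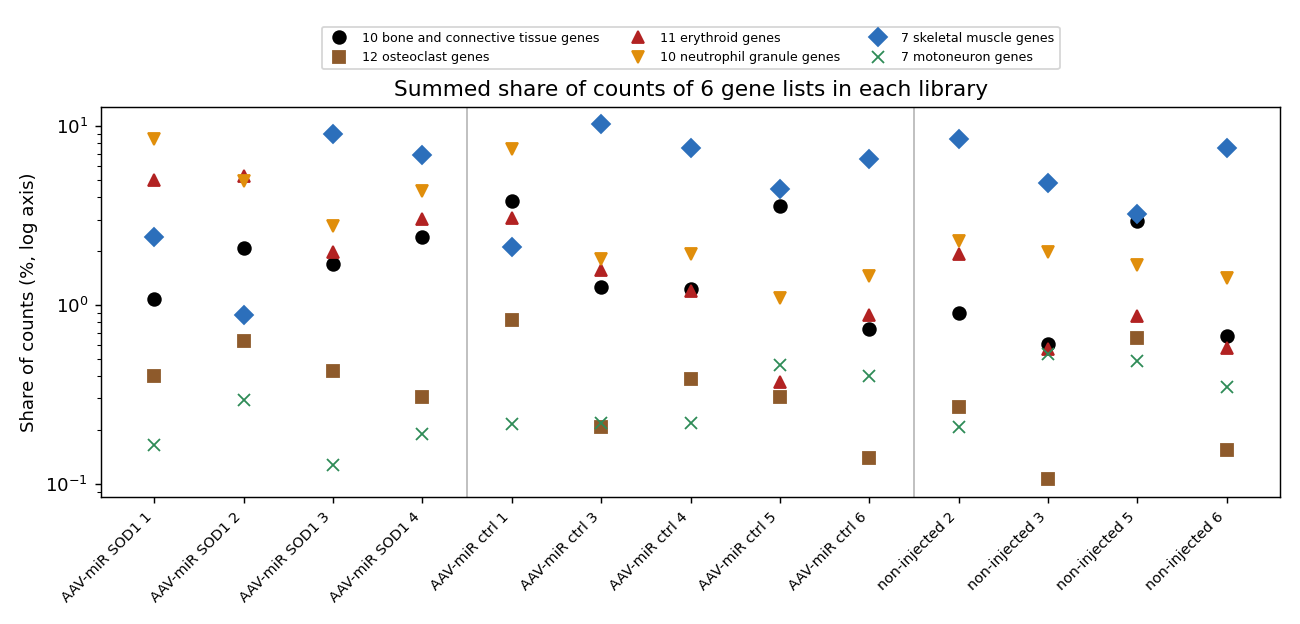
Summed share of counts (%, log axis) of 6 gene lists, with 1 column per library and grey lines between the groups. The 10 bone and connective tissue genes lie above the 7 motoneuron genes in all 13 libraries, and reach 3.83% in AAV-miR ctrl replicate 1. Shares are not scaled for gene length or for the size of a list.

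Levels per gene length were compared as counts per base of the principal transcript, scaled as TPM values are, so that each library has the same sum. On this scale the median level over 13 libraries was highest for Sparc (2378), followed by Bglap (1944), Col1a2 (1045), Col1a1 (859), Dcn (608) and Ibsp (390). Sparc ranked between 10th and 124th of all genes, Bglap between 15th and 337th, Col1a2 between 22nd and 302nd and Col1a1 between 35th and 397th. The level of Bglap was divided by its whole transcript length, though reads that aligned to several places were not counted. It may therefore be too low, and the place of Bglap below Sparc is uncertain. Col3a1 had a median of 90.7 and Alpl of 75.0, and the transcription factors Sp7 (7.99) and Runx2 (5.14) were the lowest. Neighbours in this order had overlapping ranges over the libraries, for example 1222 to 7162 for Sparc and 424 to 6563 for Bglap. The exception was Alpl, whose lowest library (27.7) was just above the highest for Sp7 (27.6).

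The type I collagen chains were high in the same 3 libraries. Col1a1 was at 2181, 6004, 4189.9 and 6602 counts per 1000000 counts assigned to genes (CPM) in AAV-miR SOD1 replicates 1 to 4. It was at 10743, 3407, 3116, 10726 and 2103 CPM in AAV-miR ctrl replicates 1, 3, 4, 5 and 6, and at 2039.7, 1593, 7185 and 1295 CPM in non-injected replicates 2, 3, 5 and 6. AAV-miR ctrl replicates 1 and 5 stood above all AAV-miR SOD1 libraries, and 3 of the 4 non-injected libraries lay below all of them. Mean levels were 4744 ± 1993 CPM (SD, n = 4), 6019 ± 4332 CPM (SD, n = 5) and 3028 ± 2788 CPM (SD, n = 4) in the same order of groups. By edgeR, the log2 difference was -0.35 ± 0.586 (SE) for AAV-miR SOD1 against AAV-miR ctrl (adjusted p = 0.825), 0.65 ± 0.617 against non-injected (adjusted p = 0.586) and 1.00 ± 0.596 for AAV-miR ctrl against non-injected (adjusted p = 1.000). None of these differences held up against the spread between libraries.

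Col1a2 followed Col1a1 closely. It ranged from 3487 to 7383 CPM in the AAV-miR SOD1 group, from 2016 to 13100.0 CPM in the AAV-miR ctrl group and from 1527 to 10033 CPM in the non-injected group. The count of Col1a1 was 0.842 times that of Col1a2 at the median and 0.625 to 1.04 times over the libraries. Per length the ratio was 0.564 to 0.941 with a median of 0.760. Log2 fold changes of Col1a2 were -0.23 ± 0.612 (SE) against AAV-miR ctrl and 0.54 ± 0.645 against non-injected, with edgeR adjusted p of 0.900 and 0.670.

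Sparc, a collagen- and calcium-binding matrix protein, was at 3451, 4841, 4552 and 7288 CPM in AAV-miR SOD1 replicates 1 to 4. In AAV-miR ctrl replicates 1, 3, 4, 5 and 6 it was at 9783, 3474, 3589, 9412 and 1999 CPM, and in non-injected replicates 2, 3, 5 and 6 at 2659.9, 1791, 8072 and 1922 CPM. The order of libraries resembled that of Col1a1, with the same 3 on top. On the log2 scale the AAV-miR SOD1 group differed by -0.16 ± 0.524 (SE) from AAV-miR ctrl and by 0.49 ± 0.552 from non-injected, with edgeR adjusted p of 0.917 and 0.657.

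Col3a1 and Dcn had another order of libraries. Col3a1, the chain of type III collagen, was at 195, 417, 392 and 352 CPM in AAV-miR SOD1 replicates 1 to 4, at 277, 329, 345, 847 and 137 CPM in AAV-miR ctrl replicates 1, 3, 4, 5 and 6, and at 298, 112, 787 and 589 CPM in non-injected replicates 2, 3, 5 and 6. Non-injected replicate 6, the lowest library for Col1a1, was the third highest for Col3a1, and AAV-miR ctrl replicate 1, the highest for Col1a1, lay among the lower ones. The ratio of Col1a1 to Col3a1 counts accordingly ran from 2.20 in non-injected replicate 6 to 38.7 in AAV-miR ctrl replicate 1, with a median of 11.2. Dcn, a small proteoglycan that binds collagen fibrils, was at 323 to 737 CPM in the AAV-miR SOD1 group, 291 to 974 CPM in the AAV-miR ctrl group and 267 to 1229 CPM in the non-injected group. Its range over libraries, 4.60-fold, was the narrowest of the 10. Col3a1 differed by -0.23 ± 0.528 (SE, log2) between AAV-miR SOD1 and AAV-miR ctrl and by -0.43 ± 0.556 between AAV-miR SOD1 and non-injected (edgeR adjusted p 0.882 and 0.697). For Dcn the values were -0.27 ± 0.437 and -0.54 ± 0.460 (edgeR adjusted p 0.819 and 0.536).

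**Figure D2:**
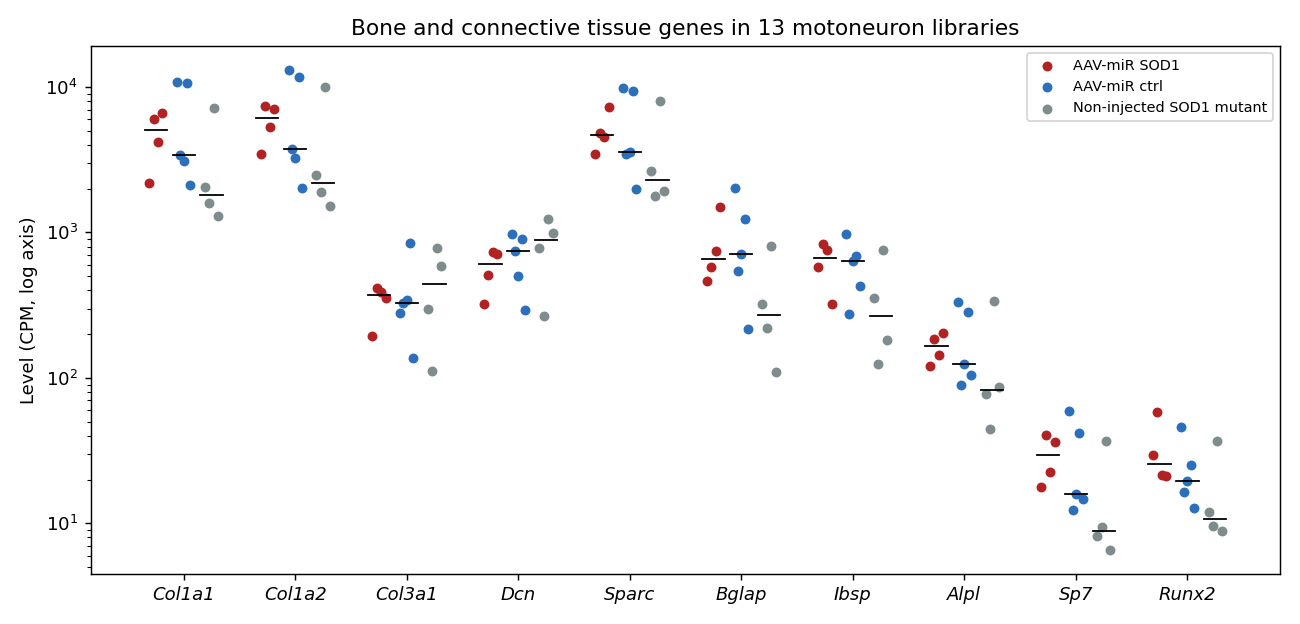
Level of each of the 10 genes (CPM, log axis) in every library, with 1 point per library, colours for the 3 groups and black bars for group medians. For 8 genes non-injected replicate 5 is the single high point of its group, while Col3a1 and Dcn show no such gap.

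Among the genes of bone mineral and its matrix, Bglap had the widest range of all 10. Bglap, a calcium-binding protein made by mature osteoblasts, was at 461, 576, 746 and 1505 CPM in AAV-miR SOD1 replicates 1 to 4. It was at 2012, 539.95, 705, 1244 and 216 CPM in AAV-miR ctrl replicates 1, 3, 4, 5 and 6, and at 324, 220.3, 809 and 110.5 CPM in non-injected replicates 2, 3, 5 and 6. The highest library exceeded the lowest 18.2-fold, and 3 of the 4 non-injected libraries lay below all AAV-miR SOD1 libraries. Group means were 822 ± 470 CPM (SD, n = 4), 943 ± 704 CPM (SD, n = 5) and 366 ± 308 CPM (SD, n = 4). By edgeR the log2 difference was -0.17 ± 0.610 (SE) for AAV-miR SOD1 against AAV-miR ctrl (edgeR adjusted p = 0.929) and 1.20 ± 0.650 against non-injected (edgeR adjusted p = 0.310). For AAV-miR ctrl against non-injected it was 1.37 ± 0.630, with an unadjusted edgeR p of 0.0476 and an adjusted p of 1.000. Bglap therefore did not pass the test in any comparison.

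Ibsp, which nucleates mineral, was at 581, 837, 757 and 320 CPM in AAV-miR SOD1 replicates 1 to 4. In AAV-miR ctrl replicates 1, 3, 4, 5 and 6 it was at 980.2, 275, 633, 686 and 426 CPM, and in non-injected replicates 2, 3, 5 and 6 at 352, 125, 756 and 182 CPM. AAV-miR SOD1 replicate 4, the highest of its group for Bglap, was the lowest of its group for Ibsp. For Ibsp the AAV-miR SOD1 group differed, on the log2 scale, by 0.02 ± 0.460 (SE) from AAV-miR ctrl and by 0.79 ± 0.488 from non-injected (edgeR adjusted p 0.987 and 0.374). Alpl ranged from 121 to 202 CPM in the AAV-miR SOD1 group, from 89.7 to 333 CPM in the AAV-miR ctrl group and from 44.5 to 335 CPM in the non-injected group. Its log2 fold changes were -0.21 ± 0.506 (SE) and 0.26 ± 0.532 (edgeR adjusted p 0.889 and 0.823).

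The osteoblast transcription factors were detected in every library, and the lowest count of any of the 10 genes was 166 reads, of Sp7 in non-injected replicate 3. Sp7 was at 17.8, 40.5, 22.5 and 36.1 CPM in AAV-miR SOD1 replicates 1 to 4. It was at 59.5, 12.4, 15.9, 41.8 and 14.7 CPM in AAV-miR ctrl replicates 1, 3, 4, 5 and 6, and at 8.18, 9.47, 36.9 and 6.60 CPM in non-injected replicates 2, 3, 5 and 6. AAV-miR ctrl replicates 1 and 5, AAV-miR SOD1 replicate 2 and non-injected replicate 5 were the highest. For Sp7 the AAV-miR SOD1 group differed on the log2 scale by 0.0014 ± 0.529 (SE) from AAV-miR ctrl and by 0.92 ± 0.563 from non-injected (edgeR adjusted p 1.000 and 0.368). Runx2 ranged from 21.2 to 58.5 CPM in the AAV-miR SOD1 group, 12.8 to 46.1 CPM in the AAV-miR ctrl group and 8.89 to 36.9 CPM in the non-injected group. Its log2 fold changes were 0.38 ± 0.434 (SE) and 0.89 ± 0.462 (edgeR adjusted p 0.723 and 0.287). Runx2 is overlapped by Supt3 and by the antisense gene Runx2os1 on the other strand. Runx2os1 shares 1 stretch of exon with it and had 231 counts in all 13 libraries, and whether counting used strand is not given in the sources used here.

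Read together, 0 of the 10 genes passed an adjusted p of 0.05 by edgeR in any of the 3 comparisons. This equals the background, since 0% of the 17403 genes tested passed in each. DESeq2 called 173, 996 and 2 of all genes in the 3 comparisons, and 0 of the 10, and limma-voom called 0 of all genes in each. At an unadjusted edgeR p under 0.05, 0 of the 10 differed between AAV-miR SOD1 and AAV-miR ctrl, where 5.99% of all genes were higher and 8.54% lower. Between AAV-miR SOD1 and non-injected 0 of 10 did, beside 9.36% higher and 11.5% lower among all genes. Between AAV-miR ctrl and non-injected 1 of 10 was higher, Bglap, and 0 were lower, beside 1.38% and 2.24% of all genes. For AAV-miR SOD1 against non-injected, some other fits of all 13 libraries gave calls at an unadjusted p under 0.05. Of the 10, 1 was higher with upper quartile scaling in edgeR, 2 by DESeq2 and 3 by limma-voom with quality weights. The shares of all genes called higher were 10.6%, 11.7% and 12.1%. The groups of libraries overlapped for each of the 10 in all 3 comparisons, whereas 3.73%, 11.7% and 0.816% of all genes had groups without overlap. The median log2 fold change of the 10 was -0.19 in the first comparison, 0.60 in the second and 0.71 in the third, against -0.045, -0.086 and -0.012 over all genes. In bulk libraries, fewer cells of a type and less RNA per cell cannot be told apart.

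**Figure D3:**
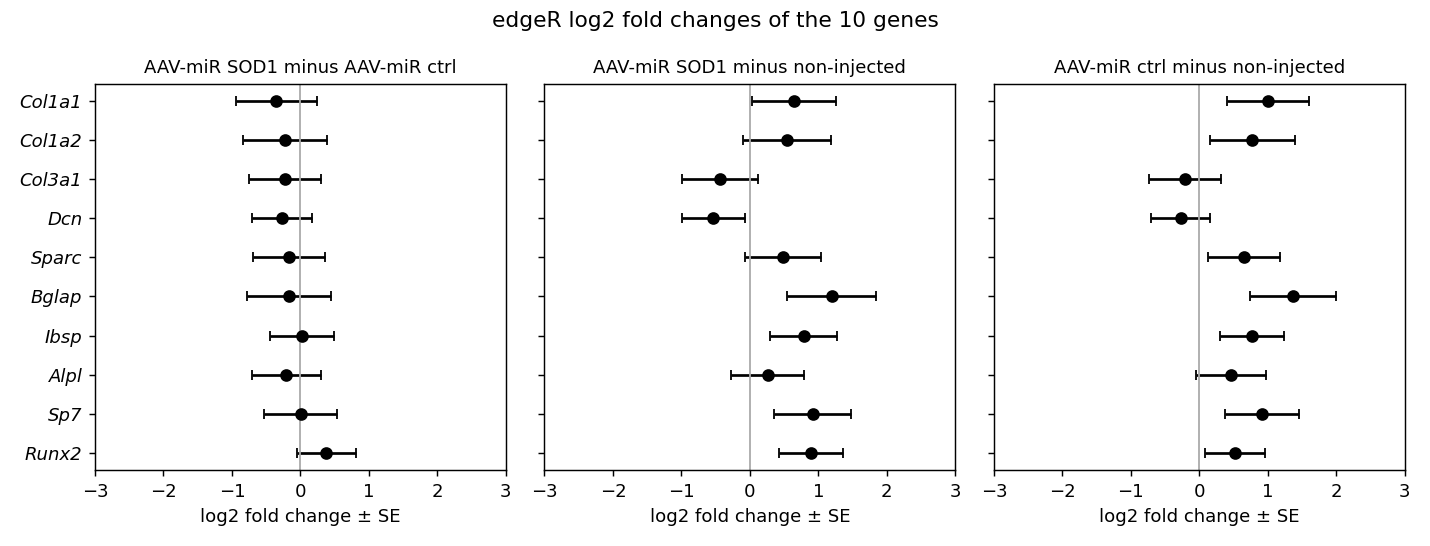
Log2 fold change of the 10 genes in the 3 comparisons (x axis), with points for edgeR estimates and bars for 1 standard error on each side. The estimates against non-injected are above 0 for 8 genes and below 0 for Col3a1 and Dcn.

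Values against the non-injected group moved most when non-injected replicate 5 was left out. It was the single high point of its group for 8 of the 10 genes, so their fold changes rise without it. The median log2 fold change of the 10 was then 1.44 for AAV-miR SOD1 and 1.37 for AAV-miR ctrl. With any other library left out it ran from 0.35 to 0.78 and from 0.42 to 0.89. Without non-injected replicate 5, the log2 fold change of Col1a1 was 1.46 ± 0.588 (SE) for AAV-miR SOD1 and 1.81 ± 0.581 for AAV-miR ctrl, each against the 3 remaining non-injected libraries. Bglap was then at 1.87 ± 0.671 and 2.04 ± 0.660, Sp7 1.79 ± 0.513 and 1.78 ± 0.500, Ibsp 1.42 ± 0.465 and 1.38 ± 0.451, and Runx2 1.59 ± 0.427 and 1.19 ± 0.407. In both comparisons 8 of the 10 genes, those other than Col3a1 and Dcn, then had an unadjusted edgeR p under 0.05, beside 10.2% and 2.29% of all genes called higher without that library. The lowest edgeR adjusted p among them was 0.206 for AAV-miR SOD1 and 1.000 for AAV-miR ctrl. The 9 libraries numbered 1 to 4 leave 2 non-injected libraries, replicate 2 and replicate 3, and the header of replicate 3 contradicts its label. Within these 9, 5 and 7 of the 10 had an unadjusted edgeR p under 0.05, beside 8.03% and 3.73% of all genes called higher. The unadjusted call of Bglap between AAV-miR ctrl and non-injected was lost when any of 7 libraries was left out. The log2 fold change was then 1.40 without AAV-miR SOD1 replicate 3. Without AAV-miR ctrl replicate 1, 4 or 5 it was 0.94, 1.44 or 1.25, and without non-injected replicate 2, 3 or 6 it was 1.39, 1.19 or 1.07. It was 0.92 under the exchange of the 2 tables with conflicting headers, 1.36 with both left out and 1.37 with only the 2 groups compared, and the call was lost in each.

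Across libraries, 8 of the 10 genes varied together. Pearson's r of log2 CPM over the 13 libraries was 0.176 to 0.982 over the 45 pairs, with a median of 0.750. The highest value was that of Col1a1 with Col1a2. Among the 8 genes other than Col3a1 and Dcn, the 28 pairs had r from 0.659 to 0.982, with a median of 0.867. Col3a1 and Dcn had r = 0.842 with each other and 0.176 to 0.599 with the other 8, with a median of 0.437 over those 16 pairs. This grouping was made after the values had been seen. These correlations describe 13 libraries that share a method and differ in depth.

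**Figure D4:**
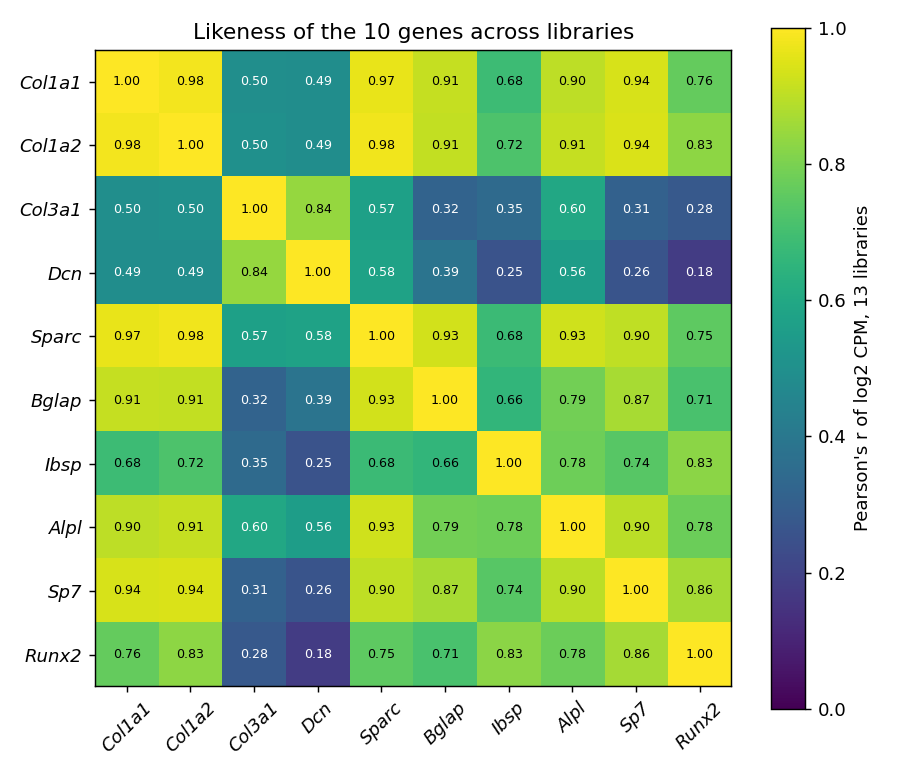
Pearson's r of log2 CPM over 13 libraries for each pair of the 10 genes (both axes list the genes, and colour runs from 0 to 1). Col3a1 and Dcn form rows of lower values against the other 8 genes and have r = 0.84 with each other.

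By the fixed measure of likeness, Pearson's r of log2 CPM over 13 libraries, the 5 genes most like Col1a1 outside the 10 were Col11a2 (0.980), Lum (0.970), Smpd3 (0.950), Dlx5 (0.944) and Gja1 (0.944). Col11a2 encodes a chain of type XI collagen, Lum the proteoglycan lumican, Smpd3 a sphingomyelinase, Dlx5 a homeobox factor and Gja1 a gap junction protein. The 5 most like Ibsp were Cacna1e (0.880), Ocstamp (0.877), Acp5 (0.876), Phex (0.875) and Cecr2 (0.873). Of these, Acp5 (tartrate-resistant acid phosphatase) and Ocstamp are osteoclast genes, and Phex is an osteocyte endopeptidase. Among the 50 genes most like Col1a1, 10 were from the list of 24 other osteoblast and osteocyte genes and 0 from that of 12 osteoclast genes, while among the 50 most like Ibsp these numbers were 3 and 4. The 50 most like Col1a1 also held 3 fibroblast and meningeal genes, among them Lum, 2 collagen processing genes and 1 microglial gene. For Ibsp these further numbers were 0, 2 and 1.

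Col1a1 was then set against the summed level of 16 other gene lists, on the log2 scale after TMM scaling, over all 13 libraries and with two-sided permutation p adjusted over the 16 relations. The lists were chosen with earlier results of these data known, so the p-values are not those of lists fixed in advance. The permutations also exchanged libraries between the 3 groups. Col1a1 varied with the other osteoblast genes (r = 0.928, permutation p = 2e-05, adjusted p = 0.00024, rho = 0.907, p = 6e-05, adjusted p = 0.00048). It also varied with 17 genes of collagen folding, processing and crosslinking (r = 0.910, permutation p = 3e-05, adjusted p = 0.00024, rho = 0.951, p = 2e-05, adjusted p = 0.00032). For 19 genes of bone morphogenetic protein and Wnt signalling in the osteoblast lineage r was 0.801 (permutation p = 0.00112, adjusted p = 0.00597) and rho 0.758 (p = 0.0039, adjusted p = 0.0208). Without AAV-miR ctrl replicates 1 and 5, the libraries farthest from the median of Col1a1, r was 0.901, 0.848 and 0.726 for these lists. Within the 9 libraries numbered 1 to 4 it was 0.894, 0.905 and 0.834.

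Genes of marrow and of other tissues gave a mixed picture. For 12 osteoclast genes, which serve bone resorption, r was 0.708 (permutation p = 0.00707, adjusted p = 0.0226) and rho 0.643 (p = 0.0199, adjusted p = 0.0531), with r = 0.747 without the same 2 libraries and 0.725 within those numbered 1 to 4. For 8 B lineage genes r was 0.713 (permutation p = 0.00463, adjusted p = 0.0185) and rho 0.714 (p = 0.00828, adjusted p = 0.0331), with r = 0.808 and 0.789 in the same subsets. For 20 fibroblast and meningeal genes r was 0.631 (permutation p = 0.0215, adjusted p = 0.0573) and rho 0.654 (p = 0.0184, adjusted p = 0.0531). Erythroid genes had r = 0.129 (permutation p = 0.669, adjusted p = 0.765) and rho = 0.154 (p = 0.617, adjusted p = 0.823), neutrophil granule genes r = 0.151 (p = 0.620, adjusted p = 0.765) and rho = 0.121 (p = 0.698, adjusted p = 0.842). Skeletal muscle genes had r = -0.333 (permutation p = 0.269, adjusted p = 0.478) and rho = -0.308 (p = 0.308, adjusted p = 0.548), and motoneuron genes r = -0.131 (p = 0.665, adjusted p = 0.765) and rho = -0.104 (p = 0.737, adjusted p = 0.842). With numbers 1 to 4 alone, r was 0.474 for erythroid and 0.431 for neutrophil genes. The remaining 6 lists (cartilage, microglial, endothelial and mural, adipocyte, astrocyte and oligodendrocyte genes) had r from -0.244 to 0.599, with adjusted permutation p of 0.0734 or more. For the cartilage genes r was 0.551, with 0.262 without the same 2 libraries and 0.705 within those numbered 1 to 4. Whether these correlations differ from each other was not tested.

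**Figure D5:**
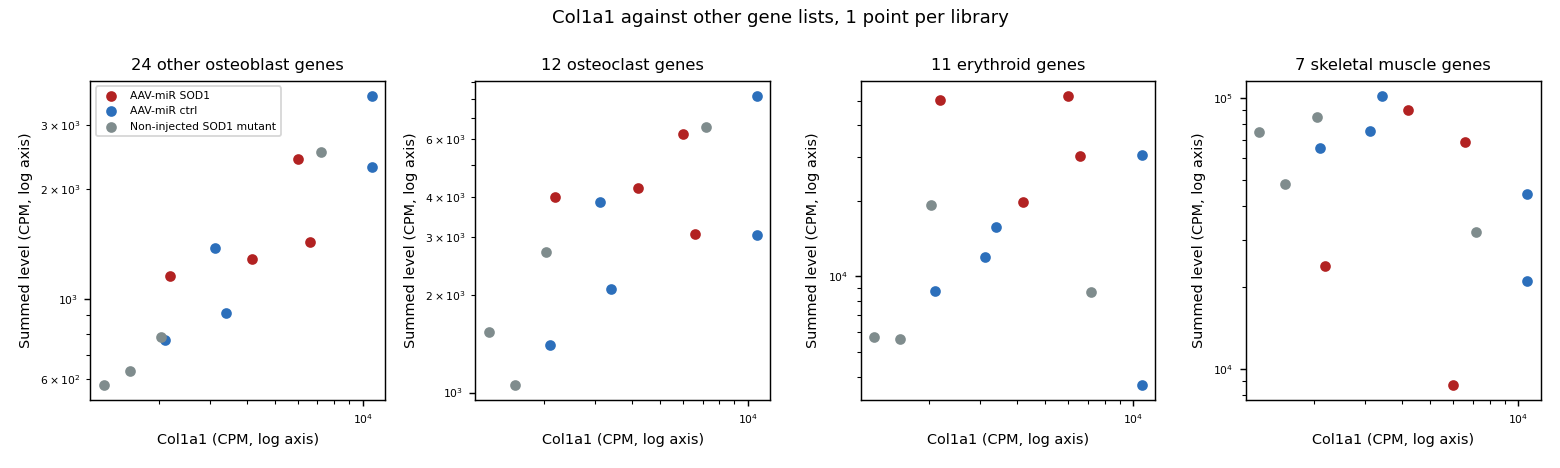
Summed level of 4 gene lists (CPM, log axis) against Col1a1 (CPM, log axis), with 1 point per library and colours for the groups. Osteoblast and osteoclast genes are higher where Col1a1 is higher (r = 0.928 and 0.708), and r is 0.129 for erythroid and -0.333 for skeletal muscle genes. These r were computed on the log2 scale after TMM scaling, which the plotted CPM do not include.

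Other bone lists also held few calls with all libraries kept. Of the 24 other osteoblast and osteocyte genes, 0 of 24 had an unadjusted edgeR p under 0.05 against AAV-miR ctrl, and 1 was higher and 0 lower against non-injected, with a median log2 fold change of -0.18 and 0.59. The gene was Phex, at 1.48 ± 0.629 (SE, edgeR adjusted p = 0.201). For AAV-miR ctrl against non-injected 2 of the 24 were higher, beside 1.38% of all genes. Without non-injected replicate 5 the numbers higher than in non-injected were 11 for AAV-miR SOD1 and 14 for AAV-miR ctrl, beside 10.2% and 2.29% of all genes. Of 12 osteoclast genes 0 had such a p in any comparison. Without AAV-miR ctrl replicate 1, however, 4 were higher in AAV-miR SOD1 than in AAV-miR ctrl, beside 11.6% of all genes. Without non-injected replicate 5 the numbers higher than in non-injected were 4 and 2, beside the same 10.2% and 2.29%. Among the signalling genes, Smad1, a transducer of bone morphogenetic proteins, was at -0.86 ± 0.376 (SE, edgeR adjusted p = 0.212) against non-injected, and the receptor Bmpr1b at -1.25 ± 0.580 (edgeR adjusted p = 0.238). Of 17 collagen processing genes, P4ha2, a subunit of the collagen prolyl hydroxylase, was at -0.78 ± 0.362 (SE, edgeR adjusted p = 0.343) against AAV-miR ctrl. Of 20 fibroblast and meningeal genes 0 had an unadjusted p under 0.05 in any comparison. Without non-injected replicate 5 the numbers higher than in non-injected were 2 for AAV-miR SOD1 and 3 for AAV-miR ctrl, again beside 10.2% and 2.29% of all genes.

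Cartilage genes stood out in 1 library. The 14 cartilage genes together held 0.239% of counts in AAV-miR ctrl replicate 5 and 0.00570% to 0.0335% in the other 12 libraries. Of 13 tested, 3 were lower at an unadjusted edgeR p under 0.05 for AAV-miR SOD1 against AAV-miR ctrl, beside 8.54% of all genes. These were Col9a3 (-3.90 ± 1.29 SE, adjusted p = 0.270), Ucma (-3.68 ± 1.40, adjusted p = 0.282) and Prg4 (-2.71 ± 1.20, adjusted p = 0.323). The count was between 1 and 7 when any other library was left out. Without AAV-miR ctrl replicate 5 none of the 12 genes still tested had such a p (0 of 12), and Col9a3 was at -1.09 ± 0.729 and Prg4 at -0.47 ± 0.830. In that library Col1a1 was as high as in AAV-miR ctrl replicate 1, where the cartilage genes held 0.0245%. For AAV-miR ctrl against non-injected, 4 of the 13 were higher at this p, beside 1.38% of all genes. With 1 library left out, the number higher in this comparison ran from 0 to 6.

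Some lists of other tissues, among them the erythroid, neutrophil granule and motoneuron genes, held more genes with a low unadjusted p than the 10 bone and connective tissue genes did. At an unadjusted edgeR p under 0.05, 5.99% of all genes were higher and 8.54% lower in AAV-miR SOD1 than in AAV-miR ctrl. Against non-injected the shares were 9.36% and 11.5%. All 11 erythroid genes had an unadjusted edgeR p under 0.05 and were higher in AAV-miR SOD1, with a median log2 fold change of 1.46 against AAV-miR ctrl and 1.77 against non-injected. The lowest edgeR adjusted p among them was 0.256 and 0.140. Examples are Epb42, at 1.71 ± 0.465 and 1.84 ± 0.502 (SE), and Klf1, at 1.77 ± 0.485 and 1.84 ± 0.523. The summed erythroid share was 1.97% to 5.25% in the AAV-miR SOD1 group, 0.370% to 3.05% in the AAV-miR ctrl group and 0.565% to 1.92% in the non-injected group. The count against AAV-miR ctrl was 6 without AAV-miR SOD1 replicate 1 and 7 without AAV-miR SOD1 replicate 2. Neutrophil granule genes were higher at this p in 2 of 10 against AAV-miR ctrl and 6 of 10 against non-injected, B lineage genes in 0 and 3 of 8. With 1 library left out, the neutrophil granule count ran from 0 (without AAV-miR SOD1 replicate 1) to 10 (without AAV-miR ctrl replicate 1) in the first comparison, and from 0 to 9 without the same libraries in the second. The B lineage count against non-injected then ran from 0, without AAV-miR SOD1 replicate 4 or non-injected replicate 3 or 6, to 5, without non-injected replicate 2 or 5. Among 6 microglial genes 1 and 3 were higher, led by Tyrobp (0.79 ± 0.347 SE) and Cx3cr1 (1.33 ± 0.317), and of 6 astrocyte genes Aldoc was lower in both (-1.03 ± 0.259 and -0.88 ± 0.269). Against AAV-miR ctrl, 3 microglial genes were higher without AAV-miR ctrl replicate 1, and 3 astrocyte genes were lower without AAV-miR ctrl replicate 5. Of the skeletal muscle, endothelial and mural, adipocyte and oligodendrocyte genes 0 had such a p in either comparison. Against AAV-miR ctrl, however, 4 of the 5 oligodendrocyte genes were lower at this p without AAV-miR ctrl replicate 5, 3 without replicate 6 and 5 within the libraries numbered 1 to 4. The 7 motoneuron genes were lower at this p in 5 and 7 of 7, among them Chat, the acetylcholine-synthesizing enzyme, at -0.83 ± 0.255 and -0.99 ± 0.267 (SE). The motoneuron count against AAV-miR ctrl was 2 without AAV-miR ctrl replicate 5 or 6, 3 without AAV-miR SOD1 replicate 3 and 0 within the libraries numbered 1 to 4, while against non-injected it was 6 or 7 with 1 library left out and 7 within those numbered 1 to 4. Per length, Col1a1 was at 4.94 times Chat in non-injected replicate 3 and 64.5 times in AAV-miR ctrl replicate 1, with a median of 24.3. The part of these tissues in the levels of the 10 genes was not tested.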

How the data were processed

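Raw read counts per gene were deposited by the authors, with 1 table for each of 13 libraries, each holding 48709 gene rows and 5 summary rows. Per the submitters' processing notes, the tools were cutadapt 1.8, STAR 2.5.2b and HTSeq 0.6.1 and the build was GRCm38. The annotation release and the strand setting are not given in the sources used here. Per the labels' protocols, 5 to 6 ng of RNA were amplified with the SMARTer Ultra Low kit and made into libraries with Nextera XT. Reads aligned to several places made up 42.3% to 56.8% of the reads in a table, and these summary rows were left out. A floor of 3 counts corresponds to 0.0802 to 0.216 CPM.

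Identifiers were named with GENCODE M21, which held 48349 of them. Counts were tested with the edgeR 4.0.16 quasi-likelihood test in R 4.3.3 on all 13 libraries and 3 groups, after filterByExpr (minimum count 10, total 15) left 17403 genes, and with TMM factors of 0.918 to 1.18. P-values were adjusted by Benjamini-Hochberg over all genes tested, with a threshold of 0.05. Log2 CPM used a prior count of 2. The common biological coefficient of variation was 0.470. All 10 genes passed the filter. No 2 libraries agreed within sampling noise, the lowest chi-square per degree of freedom being 38.9. Alternatives were DESeq2 1.42.0, limma-voom (limma 3.58.1) and those of the closing section.

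On simulated counts for AAV-miR SOD1 against AAV-miR ctrl (17403 genes, 50 changed per fold size), edgeR recovered 6%, 52%, 82% and 84% of genes changed 2, 4, 8 and 16-fold, with 13 false calls. Genes named were the 10, up to 3 of each other list with the smallest unadjusted p under 0.05 in the comparisons with AAV-miR SOD1, and the 5 most like Col1a1 and Ibsp. The 10 genes and the lists were chosen with earlier results of these data known. Correlations used 100000 permutations.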

Additional observations from a re-analysis of the deposited data

Results flagged for a closer look

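In the AAV-miR ctrl group, replicate 1 lay far above the other 4 libraries in the summed level of 6 microglial genes, at 10.05 log2 CPM, with the nearest at 8.70. This was the 1 sample found to stand apart among 81 groups of values examined, which covered the 10 bone and connective tissue genes and the summed lists. Chance alone gives about 1 in 20, or 4.05 in 81, so finding 1 is not more than chance gives. The same library had the highest level of 6 of the 10 genes, Col1a1, Col1a2, Sparc, Bglap, Ibsp and Sp7.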

How the results depend on the processing

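Across 24 alternatives to the reported fit, 0 of the 10 genes passed an adjusted p of 0.05 in any comparison. The number of all genes called was 0 in each edgeR and limma-voom alternative, but with DESeq2 it was 173 for AAV-miR SOD1 against AAV-miR ctrl, 996 for the former against non-injected and 2 for the latter against non-injected. The cause was not tested. Of 720 fold changes of the 10 genes under alternatives, 44 had the opposite sign, each of a fold change past no threshold. For AAV-miR SOD1 against AAV-miR ctrl, limma-voom with quality weights gave 0.19 for Col1a1, 0.41 for Col1a2, 0.30 for Sparc, 0.27 for Bglap, -0.017 for Ibsp and 0.20 for Alpl. The replicate block gave 0.20 for Col1a2, 0.21 for Col3a1, 0.13 for Sparc and 0.25 for Alpl, and the libraries numbered 1 to 4 gave 0.037 for Col3a1, -0.046 for Ibsp and -0.020 for Sp7. With both tables of conflicting header left out, an alternative added after the data had been seen, Ibsp was at -0.096 and Sp7 at -0.13. Against non-injected, AAV-miR SOD1 gave 0.21 for Col3a1 with the replicate block and 0.64 for Col3a1 and 0.046 for Dcn in the libraries numbered 1 to 4. AAV-miR ctrl against non-injected gave 0.0018 for Col3a1 with the replicate block and 0.60 for Col3a1 and 0.45 for Dcn in the libraries numbered 1 to 4. The cause of these changes of sign was not tested. Leaving out 1 library at a time, values for AAV-miR SOD1 against AAV-miR ctrl ran from -0.68 to 0.26 for Bglap, -0.10 to 0.23 for Ibsp, -0.17 to 0.40 for Sp7, -0.45 to 0.11 for Col1a2, -0.44 to 0.093 for Sparc, -0.37 to 0.066 for Alpl and -0.42 to 0.25 for Col3a1. For Alpl in AAV-miR SOD1 against non-injected they ran from -0.035 to 1.15, and for Col3a1 in AAV-miR ctrl against non-injected from -0.69 to 0.16. Samples sharing a replicate number deviated together in 3 of 8 pairs (r over 0.1, range -0.19 to 0.24), and 3 of 13 libraries correlated best with their own number, so the numbers were not taken as pairs. The replicate block changed no call at an adjusted p of 0.05. At an unadjusted edgeR p under 0.05 it moved the number of the 10 genes from 0 to 2 (Sp7 and Runx2) for AAV-miR SOD1 against non-injected and from 1 to 0 for AAV-miR ctrl against non-injected, where Bglap was at 1.01. With the block, 4.96% and 0.862% of all genes were higher at this p in these 2 comparisons. For AAV-miR SOD1 against AAV-miR ctrl and non-injected the block gave 8 and 10 erythroid genes higher, 1 and 2 motoneuron genes lower, 5 and 2 neutrophil granule genes higher and 5 and 3 oligodendrocyte genes lower. Among all 17403 genes, 941 and 863 were then higher and 594 and 578 lower. Other scalings, filters, fits of 2 groups and the header exchange turned no sign among the 10.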
